A study of Homo sapiens with 18 samples.

Results

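The genes described here code for proteins of the extracellular matrix. They are 43 of the 20329 genes counted in the tables and were listed by name and kind with earlier results of these data known: collagens, laminins, other matrix proteins, tolloid proteases and lysyl oxidases, and TNMD, a membrane glycoprotein of tendon. All 43 were found by their Ensembl identifiers. HAP1 is a human cell line with a nearly haploid genome. Its polyadenylated RNA was sequenced in 18 libraries that form 6 groups of 3. Control cells were wild-type HAP1 cells, whose library titles carry an A or a B, called set A and set B here. *ΔWAPL* cells were clones 3.3 and 1.14, in which a blasticidin cassette had been inserted into *WAPL* with CRISPR, and *ΔSCC4* cells carried a puromycin cassette in *SCC4*. *ΔWAPL*/*ΔSCC4* cells were made by removing SCC4 from *ΔWAPL* cells, and their label carries the number 3.3. Clone 1.14 was placed in set B with its controls, and the other knockout groups were placed in set A. WAPL releases cohesin from DNA, while SCC4 is part of the complex that loads it, so that the groups ask how matrix genes are expressed with longer-lived cohesin on DNA, with less loading, and with both. Each *ΔWAPL* group is 1 clone, and the labels name no second line of *ΔSCC4* or *ΔWAPL*/*ΔSCC4*, so that a change due to the genotype and a difference between clones cannot be told apart. No source states that the 3 libraries of a group came from separate cultures, so the p-values measure only the spread between these libraries, which may be technical.

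The matrix is a secreted scaffold around cells. Fibrillar collagens build load-bearing fibrils, while collagen IV and laminins form the networks of basement membranes, the sheets under epithelia and around muscle and vessels, with nidogens, perlecan and agrin as linkers. Tolloid proteases such as BMP1 and TLL1 trim procollagens and other precursors outside the cell, and lysyl oxidases cross-link the fibres. Collagen IV genes lie head to head in pairs, so that the start sites of both genes of a pair lie close together on opposite strands.

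Between 10007646 and 20711127 reads per library were counted on genes, with a median of 16177868. *WAPL* mRNA was 99.4 ± 21.6 CPM (reads relative to the library's total on genes, TMM-normalized; SD, n = 3) in control A and 120 ± 14.5 in control B, and between 41.4 and 45.6 on average in the 3 groups without WAPL. *MAU2*, which encodes SCC4, averaged 56.1 to 65.6 CPM in the 4 groups with SCC4, 0.699 in *ΔSCC4* and 0.936 in *ΔWAPL*/*ΔSCC4*. The cells are 1 line, so the marker lists only show what it expresses: the 8 fibroblast markers summed to 259 to 671 CPM, most of it *VIM*, with *LUM* and *FAP* without a read in any library. The 6 epithelial markers summed to 42.3 to 132 CPM, the 8 haematopoietic ones to 7.20 to 23.4, most of it *KIT* and with *SPI1* and *HBG1* without a read, and the 5 endothelial ones to at most 0.626. Fewer cells that express a gene and less RNA of it per cell cannot be told apart in such bulk RNA.

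The promoters of *COL4A5*, *COL4A6*, *COL4A1*, *TLL1* and *TNMD* are shown first, because 1 collagen IV pair was expressed and the other was near 0, and because *TLL1* and *TNMD* had large changes. Each line holds 250 bases before and 50 after a RefSeq start site in GRCh38.p14, read on the strand of the gene. Capitals mark the GC box GGGCGG, the CCAAT box CCAAT and the TATA box TATAAA on either strand. These letters are a description and not evidence that a factor binds. A GC box was found in 44.9% of all 35097 windows of this kind, a CCAAT box in 34.6% and a TATA box in 11.5%.

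COL4A5 (chrX:108439588-108439887, plus strand): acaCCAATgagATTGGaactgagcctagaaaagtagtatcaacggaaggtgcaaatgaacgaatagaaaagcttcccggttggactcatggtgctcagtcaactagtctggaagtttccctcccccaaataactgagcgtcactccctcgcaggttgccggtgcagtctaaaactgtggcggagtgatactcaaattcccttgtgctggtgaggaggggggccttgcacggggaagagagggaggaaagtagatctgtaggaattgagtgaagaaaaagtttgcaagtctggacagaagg

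COL4A6 (chrX:108439409-108439708, minus strand): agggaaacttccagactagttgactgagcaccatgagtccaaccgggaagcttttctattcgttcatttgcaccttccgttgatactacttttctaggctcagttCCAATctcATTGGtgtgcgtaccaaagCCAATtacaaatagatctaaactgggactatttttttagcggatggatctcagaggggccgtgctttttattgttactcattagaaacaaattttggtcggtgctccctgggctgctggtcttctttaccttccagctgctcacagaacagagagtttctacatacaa

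COL4A1 (chr13:110307108-110307407, minus strand): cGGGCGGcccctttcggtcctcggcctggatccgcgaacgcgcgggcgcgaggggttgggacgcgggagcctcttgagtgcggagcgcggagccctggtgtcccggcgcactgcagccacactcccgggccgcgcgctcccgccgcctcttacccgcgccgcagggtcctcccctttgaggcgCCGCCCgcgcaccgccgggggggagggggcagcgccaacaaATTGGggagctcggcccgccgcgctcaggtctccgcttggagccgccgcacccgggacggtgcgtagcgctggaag

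TLL1 (chr4:165872987-165873286, plus strand): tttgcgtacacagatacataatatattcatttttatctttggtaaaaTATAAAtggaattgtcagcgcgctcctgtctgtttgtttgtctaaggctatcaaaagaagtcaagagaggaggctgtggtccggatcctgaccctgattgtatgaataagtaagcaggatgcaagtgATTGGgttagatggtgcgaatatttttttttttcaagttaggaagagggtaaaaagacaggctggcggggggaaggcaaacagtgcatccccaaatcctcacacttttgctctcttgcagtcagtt

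TNMD (chrX:100584686-100584985, plus strand): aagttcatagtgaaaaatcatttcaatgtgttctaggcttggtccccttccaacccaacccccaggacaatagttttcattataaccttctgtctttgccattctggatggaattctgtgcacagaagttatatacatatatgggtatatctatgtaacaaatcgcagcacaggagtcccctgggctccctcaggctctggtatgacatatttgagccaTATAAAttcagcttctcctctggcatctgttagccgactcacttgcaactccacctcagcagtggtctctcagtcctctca

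RefSeq gives *COL4A6* a pair of start sites. The one shown lay 380 bases from the start of *COL4A5* and the other 1416 bases, with a window that held a GC box and no CCAAT box. The windows of *COL4A5* and of the nearer *COL4A6* start shared 121 bases, which include the paired CCAAT boxes near the beginning of the *COL4A5* line. The starts of *COL4A1* and *COL4A2* lay 127 bases apart and their windows shared 226 bases, so that of *COL4A2* is not printed. The *COL4A1* window had a GC content of 76.7% and held 45 CG dinucleotides. The *COL4A5* window had 49.3% GC and 8 CG, and the *COL4A6* window 43.7% and 7. *TNMD* had a TATA box 31 bases before its start, and *TLL1* had TATAAA only 203 bases before its own.

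Levels of the matrix genes ranged over several orders of magnitude. To compare genes, levels were put on the RPKM scale, CPM per kilobase of exon, with the exons of all annotated transcripts merged. Ranks between genes therefore also depend on the annotation. *LAMB1* and *LAMB2*, with 106 and 107 CPM in control A, had 5.68 and 15.6 RPKM there. On this scale *COL2A1*, a cartilage collagen, had the highest mean level over the 18 libraries with 50. It was followed by *LAMC1*, the common laminin γ1 chain, with 32.9, the laminin linker *NID1* with 28.7, *COL6A1* with 20.3 and *TNMD* with 16.3. *LAMB2*, *AGRN*, *FBN2*, *COL6A2* and *COL4A5* came next with 15.8, 10.6, 10.2, 10.0 and 7.46. Among these 10 genes the mean CPM of the highest group was 1.29 times that of the lowest group for *COL6A1* and 12.1 times for *TNMD*. The 43 genes together took 0.175% ± 0.0173 (SD, n = 3) of the reads on genes in clone 3.3 and 0.239% ± 0.00827 in control B, with the other groups between.

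**Figure D1:**
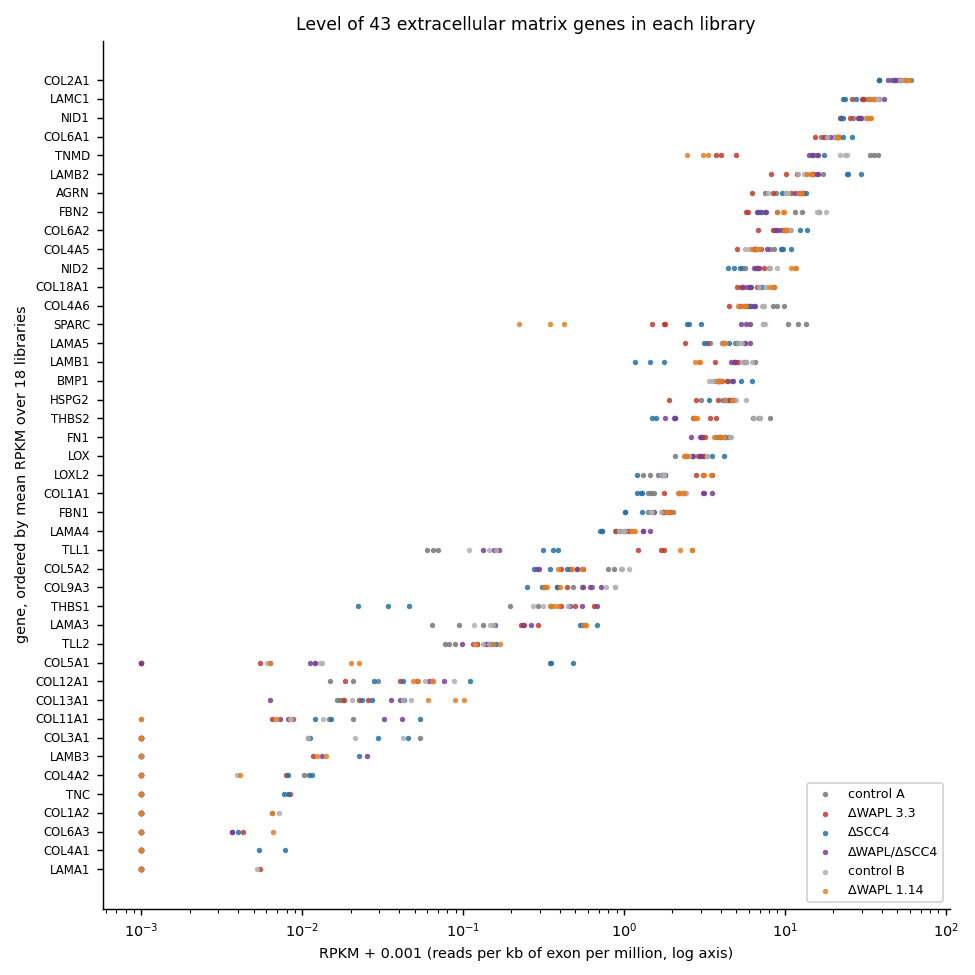
Level of each of the 43 genes in each of the 18 libraries, as RPKM plus 0.001 on a log axis, with genes ordered by their mean RPKM and colours for the 6 groups. *COL2A1*, *LAMC1* and *NID1* lie at the top with little spread between groups, whereas *TNMD*, *SPARC* and *TLL1* spread over more than a factor of 10 and points at 0.001 are libraries without a read.

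At the low end, 9 genes had at most 7 reads in any library: *COL1A2*, *COL3A1*, *COL4A1*, *COL4A2*, *COL6A3*, *COL11A1*, *LAMA1*, *LAMB3* and *TNC*. They were too low for a test in the comparison of both clones, together with *COL5A1*. *COL4A1* had 2 reads in all 18 libraries together and *COL4A2* had 14, against 902 to 1932 reads of *COL4A5* in each library. The collagen IV pair on the X chromosome was thus expressed and the pair on chromosome 13 was at or near 0, where 3 reads correspond to 0.145 CPM in the deepest and 0.300 in the shallowest library. The 2 reads of *COL4A1* were in *ΔSCC4* libraries. *COL4A2* had 2 to 3 reads in each *ΔSCC4* library (0.178 CPM on average). In every other group it averaged at most 0.0596 CPM, with at least 1 library without a read. These counts lie at the floor and the pair did not pass the filter in any comparison, so a difference between groups was not tested. In the same way *COL1A1*, with 10.9 to 32.0 CPM, was measured without its partner chain *COL1A2*, which had 3 reads in all.

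Loss of WAPL went with a large rise of *TLL1* and large falls of *TNMD* and *SPARC* in both clones. In a fit over both clones and their controls that also accounted for the set, 33 of the 43 genes could be tested, of which 5 rose and 8 fell (edgeR quasi-likelihood test, adjusted p under 0.05). These are 39.4% of the genes tested, beside 17.7% of all 12786 genes (8.56% higher and 9.13% lower). The median log2 fold change of the matrix genes was -0.08, and that of all genes 0.005. In clone 3.3 alone 4 of 31 rose and 7 fell, beside 8.07% of all genes called (4.17% higher and 3.90% lower). In clone 1.14 alone 5 of 33 rose and 8 fell, beside 20.1% of all genes called (8.70% higher and 11.4% lower). That share of all genes depended on single libraries. It was 37.9% without control B replicate 3, where 14 matrix genes were called, and 20.3% without control B replicate 2, where 17 were called. Without control B replicate 1 or any one of the clone 1.14 libraries it lay between 11.1% and 13.4%, with 12 matrix genes called each time.

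Markers of other cell types moved too. Of 4 fibroblast markers tested over both clones, *PDGFRA* had a log2 fold change of 1.47 and *THY1*, *VIM* and *S100A4* had -1.22, -0.42 and -0.84, all called. Their list summed to 463 to 503 CPM in clone 3.3 and 530 to 671 in control A, and to 409 to 432 in clone 1.14 and 488 to 546 in control B. Of 3 epithelial markers tested, *KRT8* (-1.62) and *EPCAM* (-2.72) fell, with sums of 60.3 to 66.3 CPM in clone 3.3, 58.5 to 82.3 in control A, 42.3 to 47.9 in clone 1.14 and 57.0 to 72.5 in control B. Neither of 2 haematopoietic markers tested was called over both clones. In clone 3.3 alone *LYL1* was called higher, at 1.35 CPM on average against 0.147 in control A. In set B it averaged 0.0773 CPM in clone 1.14 and 0.395 in control B. The part of all these markers in the results of the matrix genes was not tested.

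*TLL1* (ENSG00000038295, chromosome 4 of GRCh37 from 166794389 to 167025609, plus strand) codes for tolloid-like 1. It measured 0.52, 0.557 and 0.477 CPM in control A and 13.7, 14.35 and 9.95 in clone 3.3. In set B it measured 1.16, 0.873 and 1.29 CPM in the controls and 21.4, 18.1 and 21.4 in clone 1.14. All *ΔWAPL* libraries lay far above all controls, which had at most 23 reads. The log2 fold change was 4.34 over both clones (SE 0.148, adjusted p = 1.23e-10), 4.58 in clone 3.3 and 4.16 in clone 1.14, with a difference between the clones of 0.43 (SE 0.336) that was not called (adjusted p = 0.760), which does not show that the clones were alike. The other tolloid proteases, *BMP1* and *TLL2*, had log2 fold changes of 0.08 (adjusted p = 0.471) and 0.36 (adjusted p = 0.239) over both clones. No other gene of the tables with a known position starts within 500 kb of *TLL1*. *SPOCK3*, a testican proteoglycan whose start lies 1.36 Mb further along chromosome 4 and which was singled out after its values were seen, also rose, by 3.19 on the log2 scale (SE 0.224, adjusted p = 1.05e-07).

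*TNMD* (ENSG00000000005, X chromosome of GRCh37 from 99839933 to 99854882, plus strand) codes for tenomodulin, a membrane protein known from tendon. It measured 50.1, 56.0 and 52.7 CPM in control A and 7.34, 5.51 and 5.91 in clone 3.3. In set B it measured 32.5, 35.1 and 36.2 CPM in the controls and 3.61, 4.94 and 4.60 in clone 1.14. The groups did not overlap in either set. *TNMD* fell by 3.03 on the log2 scale over both clones (SE 0.096, adjusted p = 5.45e-11), with log2 fold changes of -3.09 in clone 3.3 and -2.99 in clone 1.14. *TSPAN6*, whose start lies 55.1 kb from that of *TNMD*, fell by 2.47 on the log2 scale (SE 0.335, adjusted p = 8.32e-05) from a low level of at most 2.85 CPM. *SYTL4*, at 147.2 kb, fell by 0.45 (SE 0.108, adjusted p = 0.00928). These were the 2 genes called over both clones among 7 tested neighbours within 500 kb. *SYTL4* was called in clone 3.3 (-0.73, adjusted p = 0.00668) and not in clone 1.14 (-0.19, adjusted p = 0.0625). A further pair of neighbours was called in both clones in opposite directions. *TMEM35A*, at 493.9 kb, had log2 fold changes of 1.55 in clone 3.3 (adjusted p = 1.78e-05) and -3.15 in clone 1.14 (adjusted p = 1.34e-05). *PCDH19*, a protocadherin gene on the other side of *TNMD* (at -174.7 kb), had -0.85 (adjusted p = 0.0446) and 0.52 (adjusted p = 0.00460).

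Among the matricellular proteins and fibrillins, 3 fell over both clones. *SPARC*, a collagen-binding glycoprotein, measured 63.1, 56.1 and 48.7 CPM in control A and 8.29, 8.20 and 6.97 in clone 3.3. In set B it measured 33.8, 34.9 and 33.8 CPM in the controls and 1.97, 1.61 and 1.03 in clone 1.14. It was lower in every *ΔWAPL* library than in every control, and fell by 3.48 on the log2 scale over both clones (SE 0.241, adjusted p = 9.00e-08). The fall was larger in clone 1.14 (log2 fold change -4.47) than in clone 3.3 (-2.86), and this difference between clones passed the test (1.63, SE 0.237, adjusted p = 0.00124). *THBS2*, a thrombospondin, and *FBN2*, a fibrillin of elastic microfibrils, had log2 fold changes of -1.21 (SE 0.090, adjusted p = 2.03e-07) and -0.97 (SE 0.097, adjusted p = 4.69e-06). *FN1*, fibronectin, was at -0.12 (adjusted p = 0.368).

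**Figure D2:**
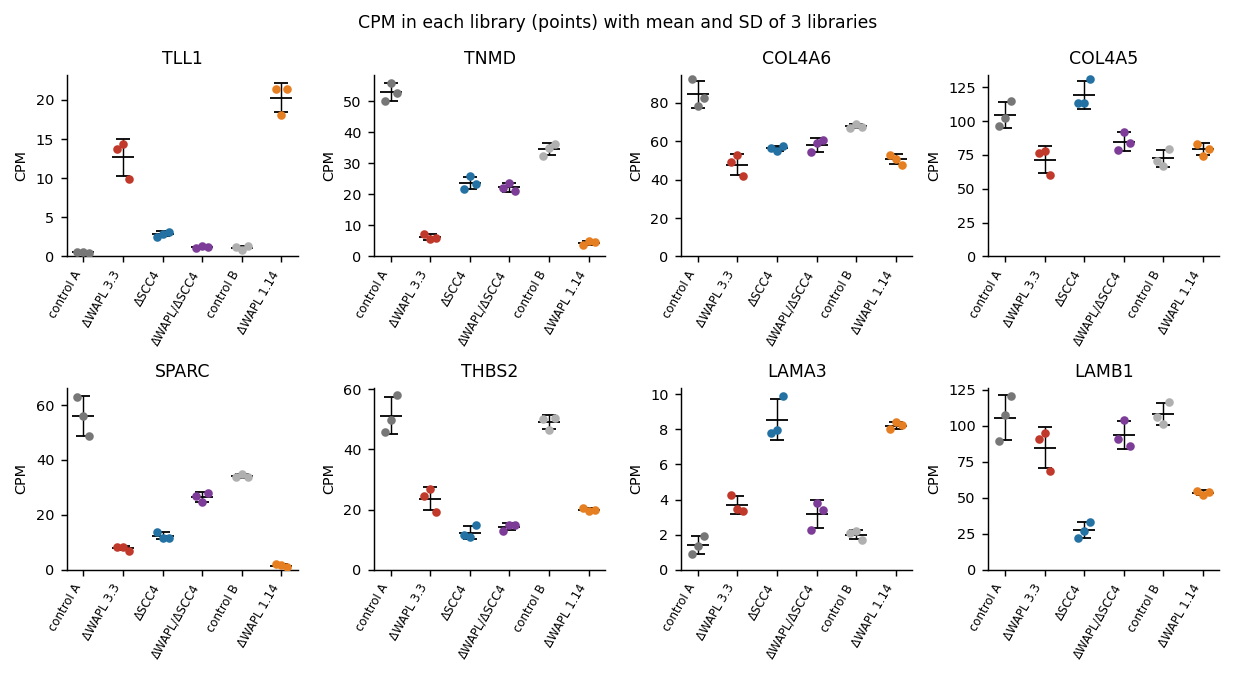
CPM of 8 matrix genes in each library (points) with the mean and SD of the 3 libraries of each group, each panel on its own linear axis from 0. *TLL1* is high in both *ΔWAPL* clones and between 1.08 and 1.35 in *ΔWAPL*/*ΔSCC4*; *TNMD* and *SPARC* are lowest in the *ΔWAPL* clones; *LAMA3* is highest in *ΔSCC4* and clone 1.14, and *LAMB1* is lowest in *ΔSCC4*.

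Of the expressed collagen IV pair, *COL4A6* fell over both clones and *COL4A5* was not called. *COL4A6* (ENSG00000197565, X chromosome of GRCh37 from 107398837 to 107682727, minus strand) measured 92.3, 78.5 and 82.7 CPM in control A and 49.0, 52.7 and 41.9 in clone 3.3. In set B it measured 67.1, 69.0 and 67.6 CPM in the controls and 53.1, 50.8 and 47.8 in clone 1.14. It was lower in all *ΔWAPL* libraries than in the controls of the same set, with a log2 fold change of -0.62 over both clones (SE 0.088, adjusted p = 1.27e-04), -0.84 in clone 3.3 and -0.44 in clone 1.14. *COL4A5* (ENSG00000188153, from 107683068 to 107940775, plus strand) measured 96.1, 102 and 115 CPM in control A and 76.7, 77.9 and 59.9 in clone 3.3. In set B it measured 70.6, 66.9 and 79.7 CPM in the controls and 83.4, 74.5 and 79.6 in clone 1.14, where the groups overlapped. Its log2 fold change was -0.21 over both clones (adjusted p = 0.249), -0.56 in clone 3.3 (adjusted p = 0.0291) and 0.12 in clone 1.14 (adjusted p = 0.319). The call in clone 3.3 was lost with all 6 controls (adjusted p = 0.296) and without any one of control A replicate 2 or 3 or of the 3 clone libraries. The sign in clone 1.14 turned with other controls (-0.40 against control A, adjusted p = 0.0280). The difference between the clones was -0.67 (SE 0.169, adjusted p = 0.0598).

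The ratio of *COL4A6* to *COL4A5* reads within a library, which does not depend on scaling, was 0.815 ± 0.129 (SD, n = 3) in control A and 0.672 ± 0.0313 in clone 3.3, and 0.943 ± 0.0912 in control B and 0.640 ± 0.0406 in clone 1.14. It was lower in the 6 *ΔWAPL* libraries than in the controls of their set (exact two-sided permutation within sets, p = 0.005, the smallest this design allows; 0.06 after adjustment over 12 ratio tests). In *ΔSCC4* it was 0.474 ± 0.0316 and in *ΔWAPL*/*ΔSCC4* 0.686 ± 0.0411. Within a set 3 libraries against 3 cannot give a p under 0.1, which was reached for *ΔSCC4* and not for *ΔWAPL*/*ΔSCC4* (exact permutation p = 0.2).

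**Figure D3:**
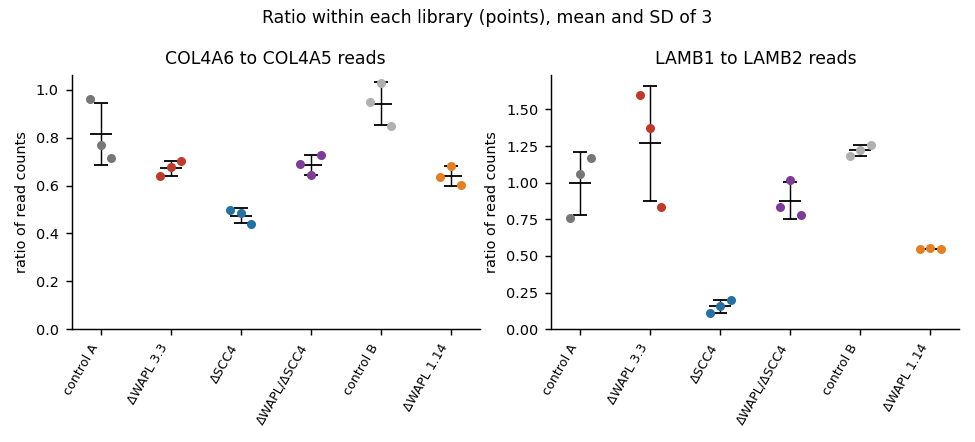
Ratio of read counts within each library (points) for *COL4A6* to *COL4A5* (left) and *LAMB1* to *LAMB2* (right), with the mean and SD of each group of 3 libraries on linear axes from 0. Both ratios are lowest in *ΔSCC4*, at 0.474 and 0.155 on average.

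Of the 6 laminin genes tested, 1 rose and 1 fell over both clones. *LAMA3*, the α3 chain of epithelial basement membranes, measured 0.911, 1.36 and 1.91 CPM in control A, 4.24, 3.46 and 3.32 in clone 3.3, 2.11, 2.22 and 1.69 in control B and 8.02, 8.40 and 8.23 in clone 1.14. It was higher in all *ΔWAPL* libraries than in all controls and rose by 1.75 on the log2 scale (SE 0.168, adjusted p = 2.95e-06). *LAMB1*, the β1 chain, had a log2 fold change of -0.67 (SE 0.132, adjusted p = 0.00229), with -1.02 in clone 1.14 (adjusted p = 7.47e-05) and -0.33 in clone 3.3 (adjusted p = 0.312). The difference between the clones was not called for *LAMB1* (adjusted p = 0.0809). For *LAMB2* it was -0.77 (adjusted p = 0.0342), with a call in clone 3.3 (-0.65, adjusted p = 0.0245) that was lost without control A replicate 2 or without clone 3.3 replicate 1 or 2.

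The remaining calls over both clones were smaller. *LOXL2*, a lysyl oxidase, rose by 0.99 (SE 0.089, adjusted p = 1.58e-06), while *LOX* was at -0.11 (adjusted p = 0.589). *NID2*, a nidogen, rose by 0.37 (SE 0.077, adjusted p = 0.00357). The fibrillar collagen gene *COL5A2* and the cartilage collagen gene *COL9A3* had log2 fold changes of -0.85 (adjusted p = 0.00111) and -0.91 (adjusted p = 9.00e-04). *NID2*, *COL5A2* and *COL9A3* were each called in clone 1.14 alone and not in clone 3.3 alone. Clone 3.3 overlapped control A for *NID2* (41.6 to 49.6 against 33.7 to 42.6 CPM) and *COL5A2* (2.99 to 4.04 against 3.71 to 6.38), but not for *COL9A3*. *COL13A1*, outside the rule for named genes because of its low level and added after its values were seen, had a log2 fold change of 0.96 (adjusted p = 0.0360) that DESeq2 did not call (adjusted p = 0.151). It is counted among the genes that rose but passed the filter through clone 1.14, with 13 to 19 reads per library. The other groups were near the floor, with 3 in control A, 3 to 5 in clone 3.3 and 4 to 8 in control B. The *COL13A1* call was also lost without any one of clone 3.3 replicate 2, the control B libraries or clone 1.14 replicates 2 and 3. In single clones *THBS1* rose in clone 3.3 (0.86, adjusted p = 0.0437) and *AGRN* in clone 1.14 (0.39, adjusted p = 0.0401), and both calls were lost when single libraries were left out. The *THBS1* call was lost without control A replicate 2 or clone 3.3 replicate 1 or 2. The *AGRN* call was lost without control B replicate 1 or any one of the clone 1.14 libraries. The difference between the clones was called for 2 of 33 matrix genes, 1 above 0 (*SPARC*) and 1 below (*LAMB2*), beside 2.65% of all genes (1.67% above and 0.985% below). Without clone 1.14 replicate 1 it was called for 1 matrix gene and 1.69% of all genes.

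The control sets were also compared with each other. None of 32 matrix genes was called between control B and control A by edgeR, beside 0.640% of all genes (0.560% higher and 0.0799% lower), while 13 had an unadjusted p under 0.05, beside 11.1% of all genes. DESeq2 called 4 of 36, beside 0.988% of all genes. Without control A replicate 1 the edgeR share of all genes was 0.071%, without control A replicate 2 it was 0% and without control B replicate 1 it was 0.174%. *TNMD* was lower in control B with a log2 fold change of -0.62 (adjusted p = 0.0535), and *TLL1* was at 1.09 (adjusted p = 0.163). A p that misses the threshold does not show that the sets were alike, and each *ΔWAPL* clone is therefore compared with the controls of its own set.

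**Figure D4:**
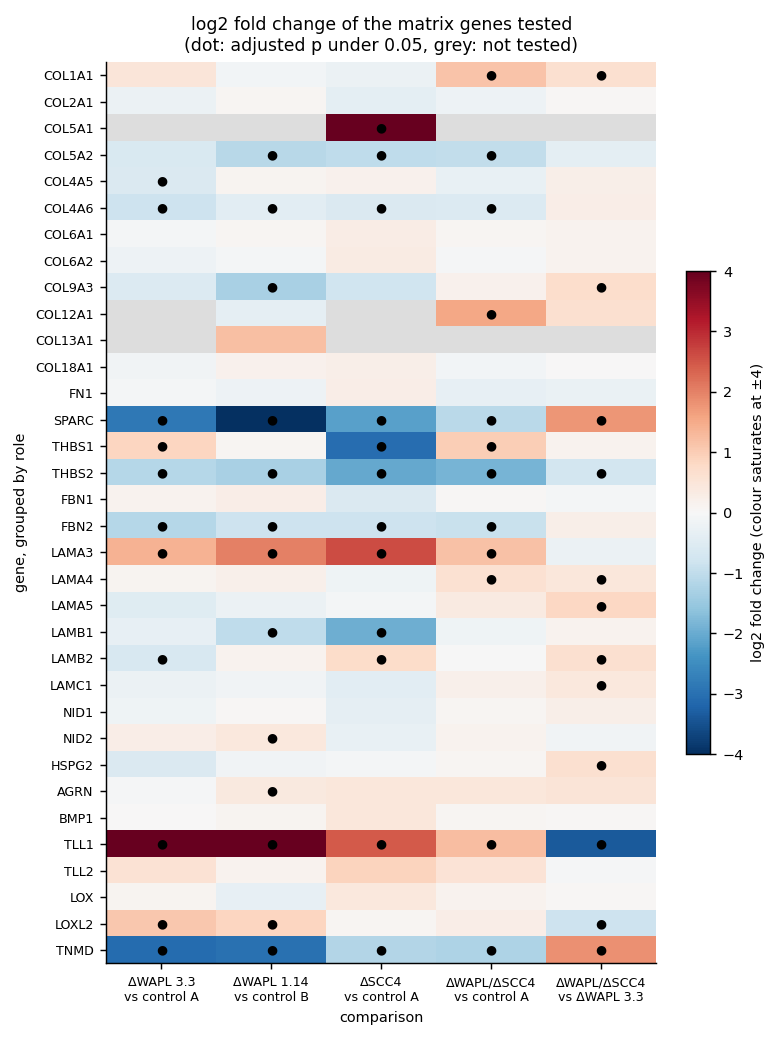
Log2 fold change (colour, which saturates at ±4) of the matrix genes tested in at least 1 of 5 comparisons, with genes in rows grouped by role, comparisons in columns, and a dot where the adjusted p was under 0.05. The first 4 columns compare with controls, the 3 of set A with the same ones; *TLL1*, *TNMD*, *SPARC*, *THBS2*, *FBN2*, *LAMA3* and *COL4A6* carry a dot in all 4.

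In *ΔSCC4* cells, against the controls of set A, 4 of 32 matrix genes were higher and 8 lower. These are 37.5% beside 9.49% of all genes (5.45% higher and 4.03% lower). The labels number the libraries but do not pair them. In these groups, libraries of the same number had correlated deviations from their group means (0.675, 0.117 and 0.616). With the number as a block 13 rose and 14 fell, beside 46.0% of all genes. Values given for *ΔSCC4* come from the fit without the block unless stated. Without control A replicate 1, 17 matrix genes and 18.3% of all genes were called, and without control A replicate 2 it was 9 and 5.25%. Of 4 fibroblast markers tested, only *PDGFRA* was called, with a rise of 1.42, and the median log2 fold change of the list was -0.348. Mean levels in control A and *ΔSCC4* were 587 and 542 CPM for *VIM*, 6.59 and 4.4 for *S100A4* and 1.18 and 0.782 for *THY1*. Of 3 epithelial markers tested, only *KRT8* was called, with a fall of 1.61. The part of these markers in the result was not tested. The fibroblast list summed to 549 to 609 CPM in *ΔSCC4* and the epithelial list to 50.3 to 62.6. The controls are those used for clone 3.3 and for *ΔWAPL*/*ΔSCC4*, so the comparisons are not independent and their values are only set side by side. *COL5A1*, a fibrillar collagen gene, had 0, 2 and 1 reads in control A and measured 5.38, 3.84 and 3.92 CPM in *ΔSCC4*, which is 178 reads in all. It passed the filter only through *ΔSCC4*, where it is high, and is counted among the 4 genes that rose. The ratio of the group sums was 73.7 (95% exact interval 24.8 to 361, for counting error only). In the other groups *COL5A1* stayed at or below 0.242 CPM.

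The laminin β chains moved in opposite directions in *ΔSCC4*. *LAMB1* measured 89.3, 107 and 120 CPM in control A and 21.8, 27.2 and 32.9 in *ΔSCC4*. It was lower in every *ΔSCC4* library and fell by 1.96 on the log2 scale (SE 0.183, adjusted p = 7.14e-05). *LAMB2*, the β2 chain, measured 118, 101 and 103 CPM in control A and 203, 169 and 167 in *ΔSCC4*, a log2 fold change of 0.74 (SE 0.138, adjusted p = 0.00613) that was not called without control A replicate 2 (adjusted p = 0.0532). The ratio of *LAMB1* to *LAMB2* reads, chosen after its values were seen, was 0.995 ± 0.214 (SD, n = 3) in control A, 1.27 ± 0.392 in clone 3.3, 0.155 ± 0.0453 in *ΔSCC4*, 0.877 ± 0.127 in *ΔWAPL*/*ΔSCC4*, 1.22 ± 0.040 in control B and 0.547 ± 0.00321 in clone 1.14. *LAMA3* rose to 7.77, 7.97 and 9.91 CPM (log2 fold change 2.60, SE 0.25, adjusted p = 8.60e-05).

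The thrombospondins and *SPARC* were low in *ΔSCC4*. *THBS1* measured 2.67, 1.79 and 3.22 CPM in control A and 0.194, 0.303 and 0.413 in *ΔSCC4*, with a log2 fold change of -3.06 (SE 0.386, adjusted p = 5.52e-04). *THBS2* measured 45.9, 49.8 and 58.0 CPM in control A and 11.4, 10.8 and 14.7 in *ΔSCC4*, with a log2 fold change of -2.05 (SE 0.171, adjusted p = 3.45e-05). Neither gene overlapped between the groups. *SPARC* fell by 2.18 on the log2 scale (SE 0.161, adjusted p = 1.59e-05), *FBN2* by 0.84 (adjusted p = 0.00942) and *COL5A2* by 1.01 (adjusted p = 0.0302). The *COL5A2* call was lost without control A replicate 2 or *ΔSCC4* replicate 1 or 2.

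*TLL1* measured 2.53, 2.93 and 3.17 CPM in *ΔSCC4*, above all control libraries and below all *ΔWAPL* libraries, with a log2 fold change of 2.45 against control A (SE 0.255, adjusted p = 1.50e-04). *SPOCK3* went the other way, with 0.939 CPM on average in *ΔSCC4* against 2.44 in control A. *TNMD* measured 21.8, 25.8 and 23.4 CPM and fell by 1.17 on the log2 scale (SE 0.133, adjusted p = 2.87e-04). Its neighbour *TSPAN6* was at -0.04 (adjusted p = 0.953). Of 6 tested neighbours of *TNMD* within 500 kb, 2 were called, both lower. They were *SYTL4* (-0.63, adjusted p = 0.0103) and *TMEM35A* (-1.385, adjusted p = 0.00117). *COL4A6* measured 56.4, 55.1 and 57.4 CPM (log2 fold change -0.59, SE 0.131, adjusted p = 0.0165), a call lost without control A replicate 2 or *ΔSCC4* replicate 1 or 2. *COL4A5* measured 113, 113 and 131 CPM, with a log2 fold change of 0.19 that was not called (adjusted p = 0.444) except with the replicate block (adjusted p = 0.0151). *COL4A3*, the gene of another collagen IV chain outside the 43 genes, had a log2 fold change of -1.69 (SE 0.263, adjusted p = 0.00207).

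In *ΔWAPL*/*ΔSCC4* cells, 6 of 32 matrix genes were higher and 6 lower than in control A, which is 37.5% beside 7.95% of all genes (4.65% higher and 3.30% lower). *THBS2* measured 12.9, 14.9 and 14.9 CPM, below all control libraries (log2 fold change -1.85, SE 0.137, adjusted p = 1.38e-05). *TNMD* measured 22.1, 23.8 and 20.9 CPM (-1.25, SE 0.117, adjusted p = 6.58e-05). *COL1A1*, a chain of collagen I, measured 13.9, 12.7 and 13.2 CPM in control A and 32.0, 28.3 and 28.0 in *ΔWAPL*/*ΔSCC4*, without overlap (1.15, SE 0.125, adjusted p = 2.00e-04). *SPARC* and *FBN2* had log2 fold changes of -1.08 (adjusted p = 5.30e-04) and -0.90 (adjusted p = 0.00269).

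The other calls of this comparison depended on single libraries. *TLL1* measured 1.08, 1.35 and 1.25 CPM, above control A, with a log2 fold change of 1.23 (adjusted p = 0.0196). The call was lost without control A replicate 2 or 3 or *ΔWAPL*/*ΔSCC4* replicate 2 or 3, and DESeq2 did not make it. These *TLL1* levels overlapped those of control B, at 0.873 to 1.29 CPM. *COL4A6* measured 54.2, 59.3 and 60.9 CPM (-0.55, adjusted p = 0.0222), a call lost without control A replicate 2 or any one of the *ΔWAPL*/*ΔSCC4* libraries. *COL4A5* measured 78.7, 92.1 and 83.8 CPM (-0.30, adjusted p = 0.227). *LAMA3* (1.16, adjusted p = 0.0314), *THBS1* (1.00, adjusted p = 0.0257), *LAMA4* (0.59, adjusted p = 0.0420) and *COL5A2* (-0.995, adjusted p = 0.0452) were also called. So was *COL12A1* (1.55, adjusted p = 0.0180), which the rule for named genes leaves out for its low level. *COL12A1* averaged 0.389 CPM in control A and 1.17 in *ΔWAPL*/*ΔSCC4*, beside 1.3 in control B. The count of 12 calls went to 14 without control A replicate 1, beside 12.2% of all genes, and to 5 without control A replicate 2, beside 4.99%. It went to 8 without *ΔWAPL*/*ΔSCC4* replicate 1, beside 4.62%, to 7 without *ΔWAPL*/*ΔSCC4* replicate 2 and to 6 without replicate 3. Of the 8 fibroblast markers the summed level was 259 to 298 CPM in *ΔWAPL*/*ΔSCC4* and 530 to 671 in control A, most of it *VIM*, while that of the 6 epithelial markers was 108 to 132 against 58.5 to 82.3, with *KRT8* at 48.6 against 8.15 on average. The haematopoietic marker *KIT* was called lower, at 8.02 against 18.5 CPM on average. The part of these markers in the result was not tested.

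Against clone 3.3, *ΔWAPL*/*ΔSCC4* cells had 9 of 32 matrix genes higher and 3 lower, which is 37.5% beside 10.6% of all genes (6.05% higher and 4.55% lower). Without clone 3.3 replicate 2, 8 matrix genes and 6.79% of all genes were called. The summed fibroblast and epithelial markers were 259 to 298 and 108 to 132 CPM in *ΔWAPL*/*ΔSCC4* against 463 to 503 and 60.3 to 66.3 in clone 3.3. The 2 haematopoietic markers tested were called lower. The part of these markers in the result was not tested. The 3 genes with the largest changes were *TLL1*, *TNMD* and *SPARC*, each opposite in sign to its change in clone 3.3 against control A, a comparison that shares the clone 3.3 libraries. The log2 fold change was -3.36 for *TLL1* (SE 0.203, adjusted p = 1.19e-08), 1.82 for *TNMD* (SE 0.147, adjusted p = 2.63e-07) and 1.76 for *SPARC* (SE 0.136, adjusted p = 1.59e-07). *TSPAN6* next to *TNMD* had a log2 fold change of 2.63 (SE 0.421, adjusted p = 4.48e-04), and *SPOCK3* one of -2.94 (SE 0.200, adjusted p = 4.05e-08). Of 7 tested neighbours of *TNMD*, *PCDH19* was the only other one called (1.23, adjusted p = 9.59e-05). Of the laminins, *LAMA5*, *LAMB2*, *LAMA4* and *LAMC1* rose, by 0.82, 0.63, 0.46 and 0.42. The *LAMA4* call was lost without clone 3.3 replicate 2 or 3 or any one of the *ΔWAPL*/*ΔSCC4* libraries, and that of *LAMC1* without clone 3.3 replicate 2 or *ΔWAPL*/*ΔSCC4* replicate 3. *COL1A1*, *HSPG2*, the gene of perlecan, and *COL9A3* rose by 0.64, 0.64 and 0.69, with adjusted p of 0.00534, 0.0350 and 0.0403. The *HSPG2* call was lost without clone 3.3 replicate 1 or 2 or *ΔWAPL*/*ΔSCC4* replicate 1 or 3, and that of *COL9A3* without clone 3.3 replicate 2 or *ΔWAPL*/*ΔSCC4* replicate 1 or 3. *LOXL2* and *THBS2* fell, by 0.82 and 0.73. *COL4A6* was at 0.28 (adjusted p = 0.191) and *COL4A5* at 0.25 (adjusted p = 0.274).

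Whether SCC4 loss acted differently with and without WAPL was tested as an interaction over the 4 groups of set A. This difference, the change with WAPL absent minus the change with WAPL present, was called for 14 of 33 matrix genes, 11 above and 3 below 0, which is 42.4% beside 11.3% of all genes (5.85% above and 5.48% below). For *TLL1* the change on SCC4 loss was 2.45 with WAPL and -3.36 without it, a difference of -5.80 (SE 0.305, adjusted p = 1.11e-08). For *SPARC* it was -2.18 and 1.76, a difference of 3.95 (SE 0.193, adjusted p = 7.11e-09), and for *TNMD* -1.17 and 1.82, a difference of 3.00 (SE 0.179, adjusted p = 4.31e-08). These 3 genes passed the test in opposite directions, while *LAMA3*, *LAMB1* and *THBS1* changed with WAPL present and had log2 fold changes of -0.23, 0.14 and 0.13 with WAPL absent, none of them called. Their differences were -2.82 (adjusted p = 4.11e-05), 2.11 (adjusted p = 2.10e-05) and 3.19 (adjusted p = 2.53e-04). For *COL4A6* the difference was 0.88 (SE 0.157, adjusted p = 0.00165), and for *COL4A5* it was 0.07 (adjusted p = 0.847).

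**Figure D5:**
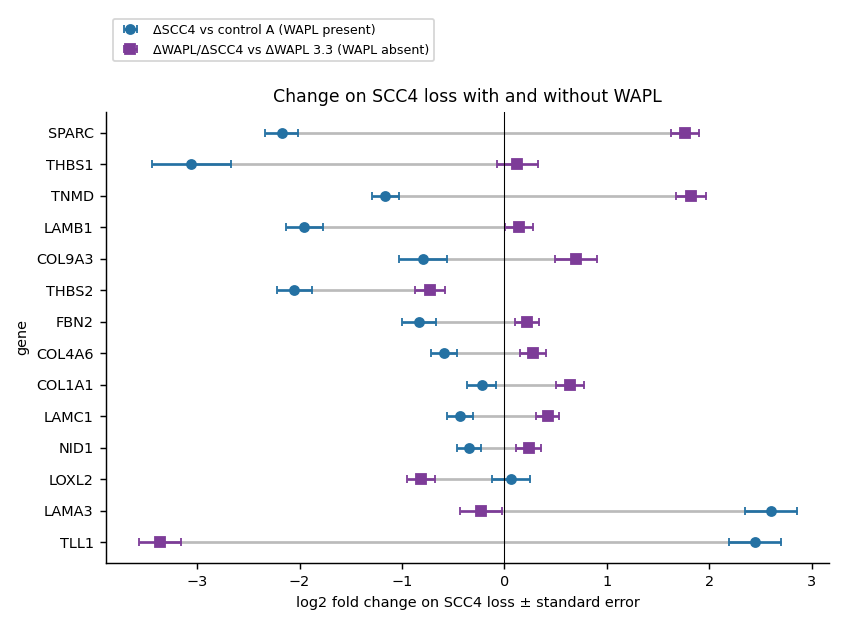
Log2 fold change on loss of SCC4, with its standard error, for the 14 matrix genes whose change differed: circles are *ΔSCC4* against control A and squares are *ΔWAPL*/*ΔSCC4* against clone 3.3. *TLL1* goes from 2.45 to -3.36, while *SPARC* and *TNMD* go from below to above 0.

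Other genes that act on the matrix were taken from 7 lists. Over both *ΔWAPL* clones, 3 of 20 tested genes of collagen maturation rose and 4 fell, and 2 of 14 integrins rose. Of 13 other matrix receptors 1 rose and 5 fell, and of 15 genes of matrix degradation 4 rose and 4 fell. Of 12 other collagens 4 rose and 1 fell, of 24 other matrix glycoproteins 2 rose and 3 fell, and of 5 substrates and partners of tolloid proteases 1 fell. The shares are to be read beside the 17.7% of all genes given above. *PXDN*, the peroxidase that cross-links collagen IV, averaged 1.29 CPM in control A and 2.91 in control B, and had at most 4 reads in any *ΔWAPL* library (log2 fold change -4.81, SE 0.392, adjusted p = 5.66e-07). *MFAP2*, a protein of the fibrillin microfibrils, averaged 6.86 CPM in control A and 5.24 in control B and had at most 6 reads in any *ΔWAPL* library. *ITGA4*, an integrin chain that binds fibronectin, rose by 1.48 (SE 0.124, adjusted p = 8.02e-07), and *MMP2*, a gelatinase, by 2.21 (SE 0.157, adjusted p = 1.18e-07).

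The same lists were counted for SCC4 loss. Against control A, 3 of 20 genes of collagen maturation rose, 1 of 14 integrins rose, and of 13 other receptors 1 rose and 3 fell. Of 15 genes of matrix degradation 1 rose and 1 fell, of 12 other collagens 2 rose and 2 fell, of 21 other glycoproteins 6 rose and 7 fell, and of 5 tolloid substrates and partners 1 rose and 1 fell, all beside 9.49% of all genes. *MMP2* rose by 2.73 (SE 0.283, adjusted p = 1.42e-04), and *PXDN* by 1.495 (SE 0.270, adjusted p = 0.00509). The *PXDN* levels in *ΔSCC4*, 2.62 to 4.08 CPM, overlapped those of control B at 2.38 to 3.43. *MFAP2* had no read in the *ΔSCC4* libraries. In *ΔWAPL*/*ΔSCC4* cells against clone 3.3, 2 of 19 genes of collagen maturation rose, of 14 integrins 1 rose and 2 fell, and 4 of 13 other receptors rose. Of 15 genes of matrix degradation 2 rose and 2 fell, of 12 other collagens 1 rose and 1 fell, of 21 other glycoproteins 7 rose and 2 fell, and 1 of 4 tolloid substrates and partners rose, beside 10.6% of all genes. There *MMP2* fell by 1.03 (adjusted p = 0.00126) and *ITGA4* by 0.88 (adjusted p = 2.40e-04), and *CD44*, a hyaluronan receptor, rose by 3.39 (SE 0.175, adjusted p = 1.66e-09). *CD44* levels also differed between the control sets, with 3.34 CPM on average in control A and 9.65 in control B. The averages were 1.31 in clone 3.3, 14.1 in *ΔWAPL*/*ΔSCC4* and 0.0661 in *ΔSCC4*, and clone 1.14 had no read.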

How the data were processed

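The authors purified polyadenylated RNA, made strand-specific libraries, aligned the reads with TopHat and deposited raw counts of reads per gene from HTSeq. The submitters' processing notes give TopHat2 2.0.9 and hg19; the annotation and the strand setting of the counting are not given in the sources used here. Counts were tested as deposited with edgeR 4.0.16 (quasi-likelihood test, TMM, filterByExpr by group, Benjamini-Hochberg adjustment over all genes tested, threshold 0.05) in R 4.3.3, with a separate fit for each comparison. A gene passes the filter also through the group in which it is high. Each standard error is the size of the log2 fold change divided by the root of its F statistic. CPM are TMM-normalized, and RPKM are CPM per kilobase of exon in GRCh37, whose annotation held 96.6% of the identifiers.

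That clone 1.14 belongs with control B was taken from the names of the deposited libraries. No label pairs libraries by replicate number. Of the group pairs examined, only control A and *ΔSCC4* had correlations of deviations from the group means over 0.1 at each number (0.675, 0.117 and 0.616). Reads without a gene (4.04% to 5.22%), in more than 1 gene (1.47% to 1.73%) or not unique (14.3% to 16.1%) were left out. Counts of replicates differed beyond sampling noise (chi-square per degree of freedom 1.606 to 51.995). The fits were tested on simulated data. The matrix genes and the other lists were chosen with earlier results of these data known. Named in every comparison were the collagen IV pairs, *TLL1* and *TNMD*, and up to 12 other called matrix genes by size of change whose average log2 CPM was not below 0. Alternatives were DESeq2 1.42.0 and its size factors, no filter, 1 fit over all 18 libraries, the replicate block, other controls and leaving out each library.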

Additional observations from a re-analysis of the deposited data

Results flagged for a closer look

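The interaction test in edgeR (change in clone 3.3 minus change in clone 1.14) called a difference between the *ΔWAPL* clones of 1.63 for *SPARC* and of -0.769 for *LAMB2*. Each clone was compared within its own set, so clone and set cannot be told apart.

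The change on SCC4 loss differed with and without WAPL for 14 genes, given as the log2 fold change with WAPL absent minus that with WAPL present. The labels name no second line of *ΔSCC4* or *ΔWAPL*/*ΔSCC4*, so genotype and differences between clones cannot be told apart here either. This difference in log2 fold change was above 0 for *SPARC* (3.946), *THBS1* (3.195), *TNMD* (2.997), *LAMB1* (2.108), *COL9A3* (1.502), *THBS2* (1.337), *FBN2* (1.065), *COL4A6* (0.877), *COL1A1* (0.868), *LAMC1* (0.866) and *NID1* (0.59). It was below 0 for *TLL1* (-5.80), *LAMA3* (-2.823) and *LOXL2* (-0.874). The call was lost for *NID1* without control A replicate 3, clone 3.3 replicate 1, *ΔSCC4* replicate 2 or *ΔWAPL*/*ΔSCC4* replicate 2 or 3, and for *LOXL2* without control A replicate 2 or *ΔSCC4* replicate 2.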

How the results depend on the processing

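Values of matrix genes called in a comparison, and of *COL4A5*, *COL4A6*, *TLL1* and *TNMD* in each, were followed under the alternatives. Of these log2 fold changes 1277 kept their direction and their side of the threshold, 99 lost the call, 12 gained one and 5 changed sign. The changes of sign were all of values not called in the main comparison: *COL4A5* in clone 1.14 (-0.166 with all 6 controls, -0.396 with control A), *TNMD* in the difference between the clones (0.015 without clone 1.14 replicate 2, the highest of a range from -0.217 when single libraries were left out), and *COL4A5* in the difference of SCC4 loss with and without WAPL (-0.003 without control A replicate 3, -0.03 without clone 3.3 replicate 3, in a range up to 0.147). The cause was not tested.

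The count of matrix genes called in *ΔSCC4* went from 12 to 20 with 1 fit over all libraries, which shares the spread between groups. It went to 27 with the replicate block, a pairing taken from correlations and not from the labels. The count for the difference between the clones went from 2 to 4 with DESeq2, 4 with 1 fit and 1 with the replicate block. That between the control sets went from 0 to 1 with DESeq2's size factors, 4 without a filter, 4 with DESeq2, 7 with 1 fit and 3 with the replicate block. The block moved no other count by over 1.5 times. Leaving out 1 library gave 5 to 14 called genes for *ΔWAPL*/*ΔSCC4* against control A, 1 to 3 for the difference between the clones and 0 to 1 between the control sets. The other counts stayed within 1.5 times of the main one under each alternative. For genes with few reads, such as *COL4A1*, *COL4A2* and *COL1A2*, depth limits any comparison.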
